A study of Mus musculus with 3 samples.

Results

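Genes of lipid handling and of the liver X receptor (LXR) pathway were described in chromatin RNA of mouse macrophages. The group held 10 genes, named by symbol, of 55536 annotated genes: the receptor genes Nr1h2, Nr1h3, Pparg and Rxra, the cholesterol efflux genes Abca1, Abcg1 and Apoe, the ubiquitin ligase gene Mylip, the lipase gene Lpl and the lipid droplet gene Plin2. Each symbol matched 1 gene identifier in all 3 libraries. The cells were bone-marrow-derived macrophages (BMDM), primary cells of the C57BL/6J strain, exposed to 100 ng/ml Lipid A, the TLR4-binding part of bacterial lipopolysaccharide, for 10 min. RNA that stays with the chromatin on cell fractionation, where nascent and partly spliced transcripts are abundant, was sequenced after depletion of ribosomal RNA. There was 1 group of 3 libraries, and no genotype or other agent was given in the labels, which leave sex and age as not collected. Without an unstimulated library in use here, a level does not show whether a gene responded to Lipid A.

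LXRs are nuclear receptors that sense oxysterols, which are oxidised forms of cholesterol, and bind DNA as heterodimers with a retinoid X receptor (RXR). In macrophages that take up cholesterol they switch on genes for its export, and without ligand they hold corepressors at the same genes. PPARγ, another partner of RXR, responds to fatty acids and their derivatives and controls genes of fatty acid uptake and storage.

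The depth on annotated genes was 15698066 estimated counts in replicate 1, 16005795 in replicate 2 and 14386725 in replicate 3. The 10 genes took 0.283%, 0.321% and 0.260% of these counts. All 10 macrophage markers (among them Csf1r, Adgre1 and Cd68) reached 1 TPM in every library, with a summed level of 1503, 923 and 762 TPM. Since Pparg, Lpl and Plin2 are also genes of adipocytes and Apoe is also a gene of hepatocytes, markers of those cells were read too. In the gene table none of 6 adipocyte markers reached 1 TPM in every library, the summed level was 0.31, 0.06 and 0.06 TPM, and Adipoq, Lep and Adrb3 had 0 counts. The second transcript table gave Retn, 1 of the 6, 6.76, 6.23 and 6.01 TPM in replicates 1, 2 and 3, and Adrb3 0.760, 1.58 and 1.01 TPM. None of 6 hepatocyte markers reached 1 TPM in every library of either table, with 0.16, 0.07 and 0.01 TPM in sum in the gene table and 0 counts for Alb, Serpina1a and Cyp3a11. The 6 fibroblast markers summed to 0.01, 0.59 and 0.59 TPM in the gene table, with Lum at 0 counts, and none reached 1 TPM in every library of either table. Col1a1 had 0, 19 and 30 counts and Col1a2 0, 19 and 15 counts in replicates 1, 2 and 3. The second transcript table gave Col1a1 0.565, 1.40 and 1.51 TPM and Col1a2 0.130, 1.03 and 0.972 TPM. The starting amount of RNA was 1 µg, 250 ng and 500 ng for replicates 1, 2 and 3, so amount and replicate cannot be told apart. The labels give the libraries 1 donor entry, and nothing in them says that the libraries came from separate animals or cultures, so the spread and the p-values may measure technical differences.

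Upstream sequence is shown for the start of Abca1 and for the downstream start of Pparg, since the first holds a motif that LXR and RXR are known to bind and the second marks a form of Pparg that was compared with the other forms. Both come from RefSeq promoters of GRCm38.p6, are written 5′ to 3′ on the strand of the gene, and end at the base before the annotated start. Capitals mark the motif.
Abca1, chr4:53159896-53160145, minus strand: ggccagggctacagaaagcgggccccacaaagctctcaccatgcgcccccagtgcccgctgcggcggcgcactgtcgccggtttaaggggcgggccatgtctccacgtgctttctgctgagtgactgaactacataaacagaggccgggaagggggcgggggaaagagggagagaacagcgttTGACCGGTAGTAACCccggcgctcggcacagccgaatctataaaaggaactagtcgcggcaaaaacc
Pparg, downstream start, chr6:115421816-115422065, plus strand: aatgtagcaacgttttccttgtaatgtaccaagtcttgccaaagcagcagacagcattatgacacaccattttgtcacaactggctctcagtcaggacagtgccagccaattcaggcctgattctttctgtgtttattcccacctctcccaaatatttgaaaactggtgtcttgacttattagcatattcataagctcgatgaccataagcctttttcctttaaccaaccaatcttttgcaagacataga
The motif was GGTNA found 2 times on 1 strand with 5 bases between the copies, the core of a DR4 element (a direct repeat of half-sites spaced by 4 bases). In Abca1 it lies on the strand opposite to the one printed, and its first base in the printed direction is 67 bases before the start. RefSeq promoters, from 250 bases before to 50 bases after a start, were found for 8 of the 10 genes, Lpl and Abcg1 being the exceptions. Among those 8, Abca1 was the gene whose promoter held this core on either strand, against 0.818% of all 27025 genes with a promoter. None of the 8 held GGTNA 2 times with 2 bases between, the core of a DR1 element that PPARγ and RXR are known to bind, which 1.27% of all genes held. A match of letters is a description and not a measured binding site.

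All 10 genes were present on chromatin, and their median level was above that of the detected genes. Each reached 1 TPM in all 3 libraries (TPM is the share of all transcripts after division by length), as did 24.4% of all annotated genes and 45.9% of 22028 protein-coding genes. The median over the 10 genes was 68.7, 54.4 and 38.9 TPM in replicates 1, 2 and 3, or 54.03 ± 14.9 TPM (SD, n = 3). Over the 10120 detected protein-coding genes the median was 11.7 ± 2.17 TPM (SD, n = 3). The genes covered a wide range, which the plot of TPM by gene shows, with Plin2, Abca1 and Lpl at the top and the receptor partner Rxra at the bottom. No read of these genes was shared uncertainly with another gene, as the read assignment SD was 0 for every member in every library. Counting error at the lowest count of a member was between 0.654% (Abca1) and 5.78% (Nr1h3) and covers counting only, because without molecular identifiers copies of 1 molecule are counted as several reads. In bulk RNA, fewer cells that express a gene and less RNA per cell cannot be told apart.

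**Figure D1:**
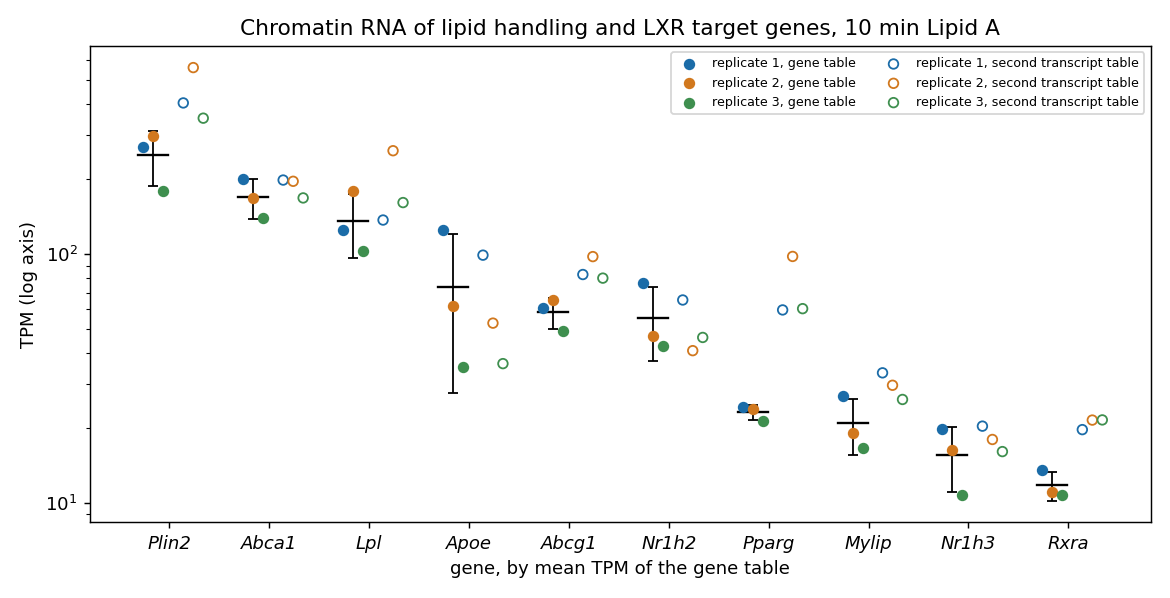
TPM (log axis) of the 10 genes in each of the 3 libraries, with filled points for the gene table and open points for the second transcript table; the bar and whiskers are the mean and SD of the gene table (n = 3). The genes run in order of mean TPM, with Plin2 at 249 ± 62.0 and Rxra at 11.8 ± 1.55, and Pparg is the gene whose open points stand farthest above its filled ones.

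Among the LXR receptor genes, the α form was the lower one. Nr1h3, which codes for LXRα (ENSMUSG00000002108.10, chr2:91184061-91202834, minus strand), had 19.8, 16.4 and 10.7 TPM in replicates 1, 2 and 3, a mean of 15.6 ± 4.57 (SD, n = 3). Nr1h2, which codes for the widely expressed LXRβ (ENSMUSG00000060601.13, chr7:44549616-44553951, minus strand), had 76.6, 47.1 and 42.8 TPM, a mean of 55.5 ± 18.4 (SD, n = 3). The receptors do not overlap in any library, and in TPM both were highest in replicate 1. Nr1h3 stood at 0.258, 0.348 and 0.251 times the TPM of Nr1h2. On the log2(TPM + 1) scale, Nr1h3 minus Nr1h2 was -1.75 ± 0.25 (SD, n = 3), and all 3 libraries had it below 0 (exact permutation test by sign flips, two-sided, p = 0.25, the smallest that 3 libraries allow). The log2(TPM + 1) scale understates the fold of low genes. The second transcript table gave the same order, with 20.4, 17.996 and 16.1 TPM for Nr1h3 and 65.4, 40.9 and 46.3 TPM for Nr1h2. Without division by length the difference was -0.98 in log2(CPM + 1), where CPM is the count relative to the library total. Nr1h3 shares 34 exon bases with Gm13783, a processed transcript on the same strand that had 1.21, 0.45 and 0.58 TPM.

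Rxra, the RXR gene among the members, was lower per length than Pparg. It is not the only RXR gene present: the RXRβ gene Rxrb, not a member, had 30.1, 18.3 and 17.7 TPM in replicates 1, 2 and 3. Rxrb was thus above Rxra in each library, and the pair below does not compare all RXR RNA with Pparg. Rxra, which codes for RXRα (ENSMUSG00000015846.14, chr2:27676440-27762957, plus strand), had 13.6, 11.1 and 10.7 TPM, a mean of 11.8 ± 1.55 (SD, n = 3). Pparg (ENSMUSG00000000440.12, chr6:115360951-115490399, plus strand) had 24.2, 23.8 and 21.4 TPM, a mean of 23.1 ± 1.54 (SD, n = 3). Both were nearly level across the libraries, and Rxra was below Pparg in each. Rxra minus Pparg was -0.92 ± 0.13 in log2(TPM + 1) (SD, n = 3; same exact test, p = 0.25). Without division by length the sign turned, to 0.49 in log2(CPM + 1). With division by length, the difference from the second transcript table was -1.71 in log2(TPM + 1). The effective length of Rxra averaged 4199 bases, against 1513 bases for Pparg. An antisense gene inside Pparg, Gm44079, shares no exon base with it and had 1.52, 0.38 and 0.77 TPM. No source used here says whether counting used strand, so reads of overlapping genes on opposite strands could not be separated.

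The export genes were led by Abca1, which codes for the transporter that loads cholesterol onto apolipoproteins. Abca1 (ENSMUSG00000015243.4, chr4:53030787-53159895, minus strand) had 201, 167.6 and 140.0 TPM in replicates 1, 2 and 3, a mean of 169.5 ± 30.5 (SD, n = 3). Abcg1, which codes for a transporter that passes cholesterol to HDL (ENSMUSG00000024030.7, chr17:31057675-31117988, plus strand), had 60.9, 65.1 and 49.1 TPM, a mean of 58.4 ± 8.30 (SD, n = 3). Abca1 was above Abcg1 in each library, by 3.30, 2.57 and 2.85 times in TPM. Abca1 minus Abcg1 was 1.52 ± 0.18 in log2(TPM + 1) (SD, n = 3; same exact test, p = 0.25), and without division by length it was 3.49 in log2(CPM + 1). After Benjamini-Hochberg adjustment over the 3 gene pairs, the exact permutation p was 0.25 for each pair. An rRNA gene inside Abcg1 on the same strand, Gm25447, shares no exon base with it and had 0, 39.6 and 0 TPM. With an average of 26795 estimated counts, Abca1 was also the member with the most reads, and its messenger RNA is the longest of them.

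Of the other genes of cholesterol export and uptake, Apoe varied widely between the libraries and Mylip less. Apoe, which codes for the apolipoprotein that macrophages secrete with cholesterol (ENSMUSG00000002985.16, chr7:19696109-19699188, minus strand), had 125, 61.7 and 35.1 TPM in replicates 1, 2 and 3, a mean of 74.0 ± 46.3 (SD, n = 3). Its level in replicate 1 was 3.56 times that in replicate 3, the widest range of any member, and without replicate 1 its mean was 48.4 TPM. Mylip, which codes for IDOL, a ubiquitin ligase that lowers the uptake of lipoprotein cholesterol (ENSMUSG00000038175.10, chr13:45389742-45412022, plus strand), had 26.9, 19.1 and 16.7 TPM, a mean of 20.9 ± 5.31 (SD, n = 3). Mylip was highest in replicate 1 as well.

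The genes of lipid uptake and storage were among the highest. Plin2, which codes for a coat protein of lipid droplets (ENSMUSG00000028494.12, chr4:86648386-86670060, minus strand), had 269.7, 299 and 179.9 TPM, a mean of 249 ± 62.0 (SD, n = 3). Lpl, which codes for the lipase that frees fatty acids from lipoprotein triglycerides (ENSMUSG00000015568.16, chr8:68880491-68907448, plus strand), had 125, 179 and 103 TPM, a mean of 136 ± 39.2 (SD, n = 3). In TPM both were highest in replicate 2, as was Abcg1, and the other 7 members were highest in replicate 1. Protein-coding genes held 31.7%, 25.3% and 22.2% of all TPM in replicates 1, 2 and 3, so the TPM of such a gene depends on the make-up of the library. With TPM rescaled over protein-coding genes, Abca1 and Nr1h3 were highest in replicate 2, and Pparg and Rxra in replicate 3. Apoe, Nr1h2 and Mylip stayed highest in replicate 1. Plin2 lay at percentile 98.6 of all detected genes, Abca1 at 97.9 and Lpl at 97.3, and the lowest member, Rxra, at 57.7.

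Of the 9 neighbouring steps in this order, 5 were larger than the spread of the libraries, meaning that the mean difference in log2(TPM + 1) exceeded its SD and had 1 sign in all 3 libraries. Plin2 exceeded Abca1 by 0.54 ± 0.26, Nr1h2 exceeded Pparg by 1.18 ± 0.38 and Mylip exceeded Nr1h3 by 0.41 ± 0.19 (SD, n = 3 each). Lpl exceeded Apoe by 1.02 ± 0.88, with a difference of 0.00046 in replicate 1, and Nr1h3 exceeded Rxra by 0.35 ± 0.30, with 0.0025 in replicate 3 (SD, n = 3 each). The other 4 steps, Abca1 over Lpl, Apoe over Abcg1, Abcg1 over Nr1h2 and Pparg over Mylip, were within the spread, so the order of those genes is not settled. The order was itself drawn from these TPM values, which favours mean differences above 0, so the 5 larger steps are a description only. In the second transcript table Nr1h2 was above Pparg, and Nr1h3 above Rxra, in 1 of 3 libraries each. These steps are in TPM. Without division by length, Plin2 was below Abca1 (mean of 282 against 1740 CPM) and Nr1h3 below Rxra (25.1 against 52.3 CPM). The rest of the 5 kept their order.

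Pparg depended most on how the reads were quantified. Summed over its transcripts, the second transcript table gave Pparg 59.7, 97.9 and 60.4 TPM in replicates 1, 2 and 3, a mean of 72.6 ± 21.9 (SD, n = 3). These were 2.46, 4.11 and 2.82 times the gene table's values, and the mean ratio, 3.13, lay at percentile 95.6 of the detected protein-coding genes. The median ratio over those genes was 1.12, 1.33 and 1.43 in the 3 libraries. Apoe lay near the other end, with 99.1, 52.8 and 36.3 TPM in the second table and a mean ratio of 0.894 at percentile 9.46. For Abca1 the tables were close, with 198, 196 and 168 TPM in the second.

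The wider pathway was read from 5 lists, whose levels are drawn in the plot by gene list. For the counts of detected genes in them, the share over all protein-coding genes was 45.9%. Of 15 other LXR target genes 9 were detected, with a list median of 9.06 ± 0.754 TPM (SD, n = 3), below the 54.03 of the 10 genes. Pltp, which codes for the phospholipid transfer protein, had 117 ± 43.9 TPM, and Cd5l, a macrophage-secreted protein, 43.2 ± 11.2 TPM (SD, n = 3 each). Srebf1, which codes for the regulator of fatty acid synthesis SREBP1 and was added here as a classic target outside the naming rule, had 29.1 ± 5.90 TPM (SD, n = 3). Apoc4, a neighbour of Apoe in the genome, had 0.02 ± 0.02 TPM in the gene table, but 9.15 ± 1.11 TPM in the second transcript table (SD, n = 3 each). The sterol transporter gene Abcg5, known for its role in liver and gut, had 0 counts. Such a count allows a level of up to 3 counts, or 0.191, 0.187 and 0.209 CPM in replicates 1, 2 and 3.

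Of the receptors and coregulators, 9 of 12 were detected, with a list median of 20.6 ± 4.76 TPM (SD, n = 3). The corepressor gene Ncor1, whose product binds LXR without ligand, had 160.3 ± 17.4 TPM and the coactivator gene Ncoa3 63.2 ± 17.0 TPM (SD, n = 3 each). Beside Rxra at 11.8 TPM, the RXRβ gene Rxrb had 30.1, 18.3 and 17.7 TPM and the RXRγ gene Rxrg 0 counts. Beside Pparg, the PPARδ gene Ppard had 19.2, 15.5 and 10.0 TPM and the PPARα gene Ppara 0 counts. In the second transcript table Rxrg and Ppara had 0.324 ± 0.202 and 0.131 ± 0.043 TPM (SD, n = 3 each). Rxrb and Ppard fell outside the naming rule and were chosen as the paralogs of members.

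Genes that make and move cholesterol were mostly detected, where 45.9% of all protein-coding genes were. Sterol synthesis genes and regulators, most of them targets of the transcription factor SREBP2, were detected in 13 of 13 cases, which is the portion of the list reported here and holds no uptake gene, with a list median of 11.6 ± 2.65 TPM (SD, n = 3). Insig1, whose product holds the SREBP proteins in the endoplasmic reticulum, had 29.2 ± 7.79 TPM and Hmgcs1, which codes for an early enzyme of the synthesis, 22.6 ± 2.72 TPM (SD, n = 3 each). The lowest were Mvd with 4.03 ± 0.653 and Dhcr7 with 3.5 ± 0.691 TPM, which code for enzymes of the same route (SD, n = 3 each). Cholesterol trafficking and oxysterol genes were detected in 8 of 9 cases, with a list median of 51.9 ± 15.6 TPM (SD, n = 3), close to that of the 10 genes. Cyp27a1, which codes for the enzyme that makes the LXR ligand 27-hydroxycholesterol, had 172 ± 48.2 TPM and the lysosomal lipase gene Lipa 107 ± 14.4 TPM (SD, n = 3 each). Abca7 had 9.65 ± 3.52 TPM, and Ch25h, which codes for the enzyme of another oxysterol, 3, 1 and 0 counts. Lipid droplet and fatty acid genes were detected in 13 of 18 cases, with a list median of 7.72 ± 1.86 TPM (SD, n = 3). The fatty acid carrier gene Fabp5 had 187 ± 51.5 TPM and the cholesterol esterifying enzyme gene Soat1 166 ± 46.4 TPM, against 169.5 TPM for Abca1, while Dgat2 had 0.01 TPM and Pdk4 had 0 counts (SD, n = 3 each).

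**Figure D2:**
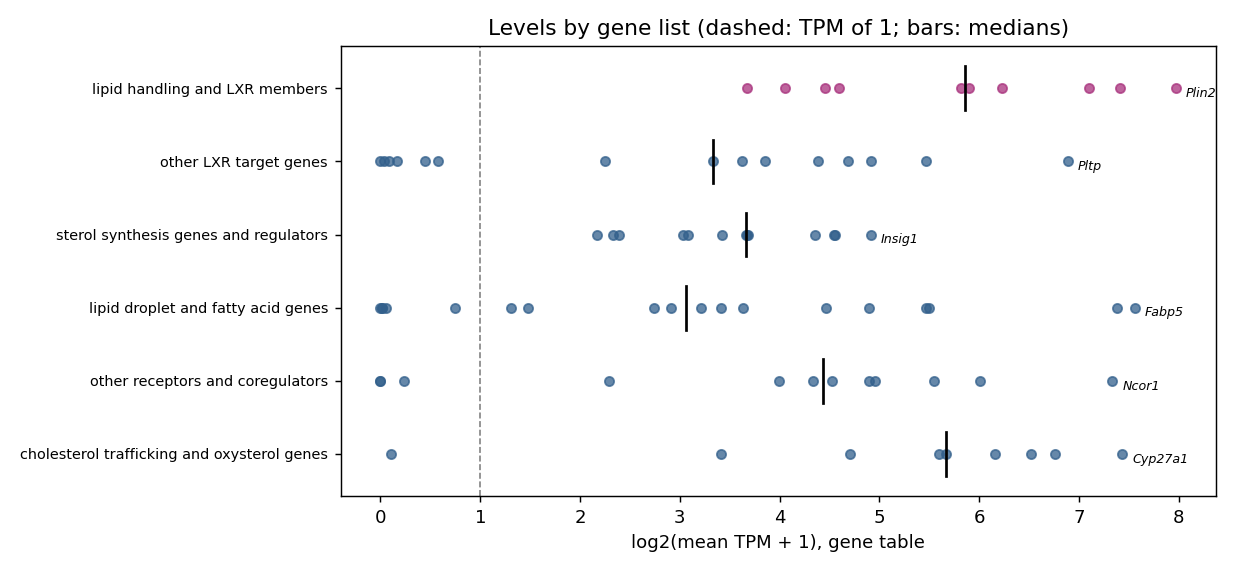
Level of each gene as log2(mean TPM + 1) in the gene table, for the 10 genes (top row) and 5 lists of related genes; each point is a gene, the black bar is the median of the points, the dashed line is 1 TPM and the highest gene of each row is named. All 10 genes lie right of the line, and of the lists, cholesterol trafficking and oxysterol genes have the median nearest to theirs.

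Differences between the libraries were then read on counts scaled with edgeR's TMM factors, as 1 library against 1 library and so with no test. Replicate 1 against replicate 2 differed by more than 1.5-fold in 3 of the 10 genes, where 19.7% of 15877 genes did so. Apoe and Nr1h2 were higher in replicate 1, a direction held by 8.57% of all genes, and Lpl was lower, a direction held by 11.2%. Against replicate 3, replicate 1 was past 1.5-fold for Apoe, with 16.6% of all genes past it either way, 9.01% on the higher side and 7.55% on the lower. Between replicates 2 and 3 none of the 10 genes passed, where 13.4% of all genes did, 9.14% higher and 4.23% lower in replicate 2. These counts lie near the share over all genes. With scaling by total counts alone, Apoe, Lpl and Plin2 were past 1.5-fold between replicates 2 and 3, where 17.5% of all genes were past it, and each was higher in replicate 2, as were 15.2% of all genes. All 10 members had ratios above 0 there, as did 72.1% of all genes. Under TMM scaling 5 of 10 did, against 47.5% of all genes. Relative to TMM, total-count scaling shifts the median ratio of all genes by 0.19 in log2 for this pair of libraries.

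**Figure D3:**
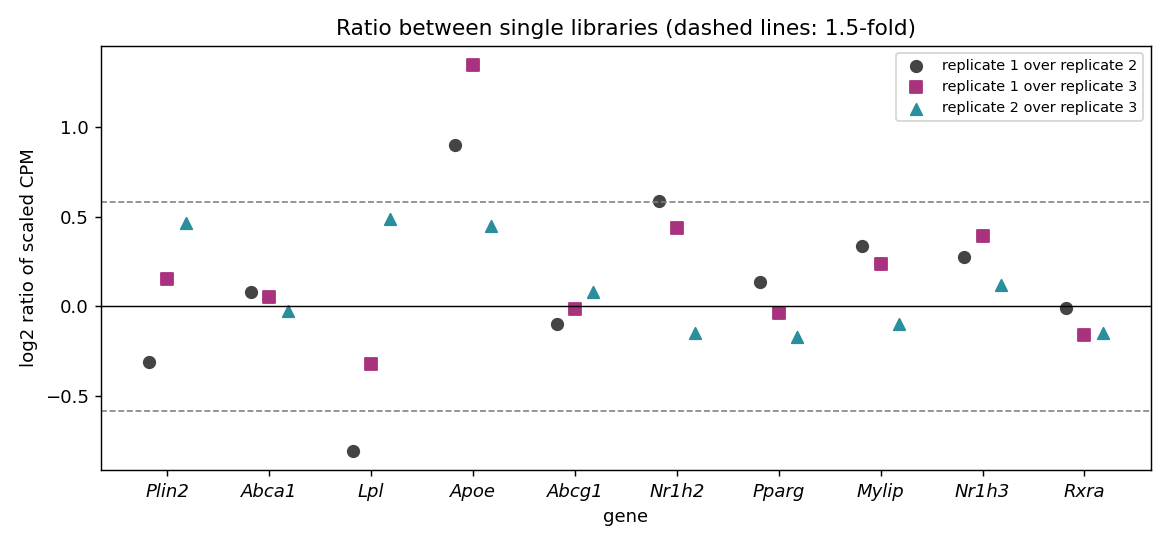
log2 ratio of scaled CPM between single libraries for each of the 10 genes, with 1 symbol for each pair of libraries; the dashed lines mark 1.5-fold. Apoe has the largest ratio, 1.35 for replicate 1 over replicate 3, and Abca1, Abcg1, Pparg and Rxra stay between the lines and near 0.

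Apoe had 90.9, 48.8 and 35.8 scaled CPM in replicates 1, 2 and 3, so replicate 1 was 1.86-fold above replicate 2 and 2.54-fold above replicate 3. Nr1h2 had 63.4, 42.2 and 46.8 scaled CPM, and its ratio of replicate 1 to replicate 2, 1.5003, sits on the 1.5-fold line. Lpl ran the other way, with 313, 548 and 391 scaled CPM, and replicate 2 was 1.75-fold above replicate 1. Apoe and Nr1h2 are the members with the shortest genes, 3080 and 4336 bases. Among protein-coding genes under 5 kb (1276 genes) the median log2 ratio of replicate 1 over replicate 3 was 0.22, against 0.03 for genes of 5 to 50 kb (7354) and -0.04 for genes over 50 kb (3141). For replicate 1 over replicate 2 these medians were 0.17, 0.07 and 0.04. Replicate 1 also had the highest mitochondrial share of counts, 0.0926% against 0.0407% and 0.0343% in replicates 2 and 3, and the highest summed level of macrophage markers. The part of these in the Apoe and Nr1h2 values was not tested.

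The long genes Abca1, Abcg1, Pparg and Rxra were the steadiest members. Abca1 had 1792, 1697 and 1727 scaled CPM, a range of 1.06-fold, and Abcg1 149.5, 159.9 and 151.2, a range of 1.07-fold. Pparg had 37.9, 34.5 and 38.9 scaled CPM and Rxra 50.3, 50.6 and 56.1. The gene-wise biological coefficient of variation that edgeR fitted was 13.8% for Abca1 and 13.996% for Abcg1, at percentiles 0.202 and 0.857 of all genes, and 26.1% for Apoe, at percentile 87.6. The median over the 10 genes was 15.5%, against 17.8% over all genes. These fitted values draw each gene toward the trend for its expression level.

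The sterol list had genes past the line between replicates 2 and 3, where the 10 genes had none. Of its 13 genes 4 were past 1.5-fold lower in replicate 2 (Hmgcs1, Idi1, Fdps and Mvd, named after their values were seen), where 4.23% of all genes were, and none was higher. Its median log2 ratio was -0.36 for replicate 2 over replicate 3 with TMM scaling, and -0.16 with total-count scaling, where none was past the line on the lower side and 1 on the higher, against 2.27% and 15.2% of all genes. Over the 5 lists, 53 of 67 genes could be read this way. Of these, 5 were higher and 1 lower in replicate 1 against 2, 1 higher and 3 lower in replicate 1 against 3, and 3 higher and 5 lower in replicate 2 against 3. Over all 15877 genes the shares higher and lower were 8.57% and 11.2%, 9.01% and 7.55%, and 9.14% and 4.23% in these comparisons. Srebf1, Pltp and Cd5l were not among the list genes past the line.

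Transcript tables split the RNA of a gene among its annotated forms, 72 for the 10 genes, of which 15 were at 0 in the first transcript table and 7 in the second. Chromatin RNA keeps introns, but reads were assigned to annotated forms only. A share in retained intron forms therefore depends on which forms are annotated and does not measure unspliced RNA. Such forms are annotated for 6 of the 10 genes (Abca1, Plin2, Mylip and Rxra have none). Their median retained intron share of TPM was 30.6%, 40.5% and 37.3% in replicates 1, 2 and 3, or 36.1% ± 5.02 (SD, n = 3), where all 6523 detected genes with such forms had 46.6% ± 2.31 (SD, n = 3). In the second transcript table it was 33.7% ± 7.37, where the 7393 such genes detected in that table had 44.5% ± 1.62 (SD, n = 3 each).

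The LXR genes had the highest mean shares of these forms in both tables, but single libraries overlapped. In the first table Lpl in replicate 2, at 43.3%, and Abcg1 in replicate 3, at 39.5%, reached the range of Nr1h2. In the second table Pparg in replicate 2, at 52.5%, reached that of Nr1h2, and in replicate 3 Abcg1 and Pparg, at 39.1% and 36.9%, were above Nr1h3, at 34.4%. Nr1h3 had 55.1%, 53.5% and 54.6% of its TPM in retained intron forms, with Nr1h3-208 alone at 38.4% ± 6.69 (SD, n = 3). Nr1h2 had 42.3%, 44.5% and 37.9%, and its most abundant single form was Nr1h2-212, a coding form of 2 exons, at 30.6% ± 5.10 (SD, n = 3). In the second table the shares were 41.0% ± 6.71 for Nr1h3 and 49.8% ± 5.04 for Nr1h2 (SD, n = 3 each), so the order of these receptors depends on the quantification.

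Lpl was spread over more classes. Its full-length coding form, Lpl-201, held 31.8%, 35.0% and 39.9% of TPM in the first table. Retained intron forms held 31.1%, 43.3% and 36.7%, among them Lpl-205, a single-exon form of 3954 bases that begins 64 bases after the gene start, at 19.0% ± 3.24 (SD, n = 3). Lpl-203, annotated as a target of nonsense-mediated decay, held 31.4% in replicate 1 and 16.9% and 16.8% in replicates 2 and 3. Replicate 1 thus had the lowest scaled CPM of Lpl and the highest share of Lpl-203, also in the second table with 33.6%, 21.5% and 21.7%.

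Apoe kept 12.6% ± 4.43 in its retained intron form in the first table, the smallest mean share of the 6 genes, and Apoe-209, a coding form, was the most abundant with 46.8% ± 6.74 (SD, n = 3 each). In the second table Apoe-209 still led, with 27.96% ± 5.03, and the coding form Apoe-207, listed at 0 in the first, held 14.9% ± 3.18 (SD, n = 3 each). Abcg1 was split nearly evenly in the first table among Abcg1-205, Abcg1-202 and Abcg1-201, with 33.8% ± 5.17, 33.4% ± 5.21 and 32.3% ± 3.42 (SD, n = 3 each). In the second they held 38.5%, 31.3% and 19.8% on average. Abcg1-202 is the retained intron form and Abcg1-205 has 3 exons, against 15 in the full-length Abcg1-201. Most of the Abcg1 TPM thus rests on forms of 1372 and 1085 bases, against 5832 bases for Abcg1-201. TPM divides by length, so this is not a share of reads. Abca1 was nearly all in its full-length form of 50 exons, Abca1-201, with 96.9% ± 0.110 in the first table and 86.6% ± 2.52 in the second (SD, n = 3 each). Only 2 forms of Abca1 are annotated, and neither is a retained intron form. RNA with introns thus had no form to be assigned to, and the share does not show how far Abca1 RNA was spliced. The same holds for Mylip, with 2 annotated forms, both coding. Plin2-201, the full-length form, held 40.9% ± 0.889 and the short processed form Plin2-202 31.6% ± 6.50 in the first table (SD, n = 3 each). In the second they held 15.8% ± 0.656 and 16.7% ± 2.09, behind Plin2-206 with 23.1% ± 2.15 and Plin2-207 with 22.5% ± 2.50 (SD, n = 3 each). Mylip-201 held 91.8% ± 1.08 in the first table and 58.1% ± 4.61 in the second (SD, n = 3 each).

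**Figure D4:**
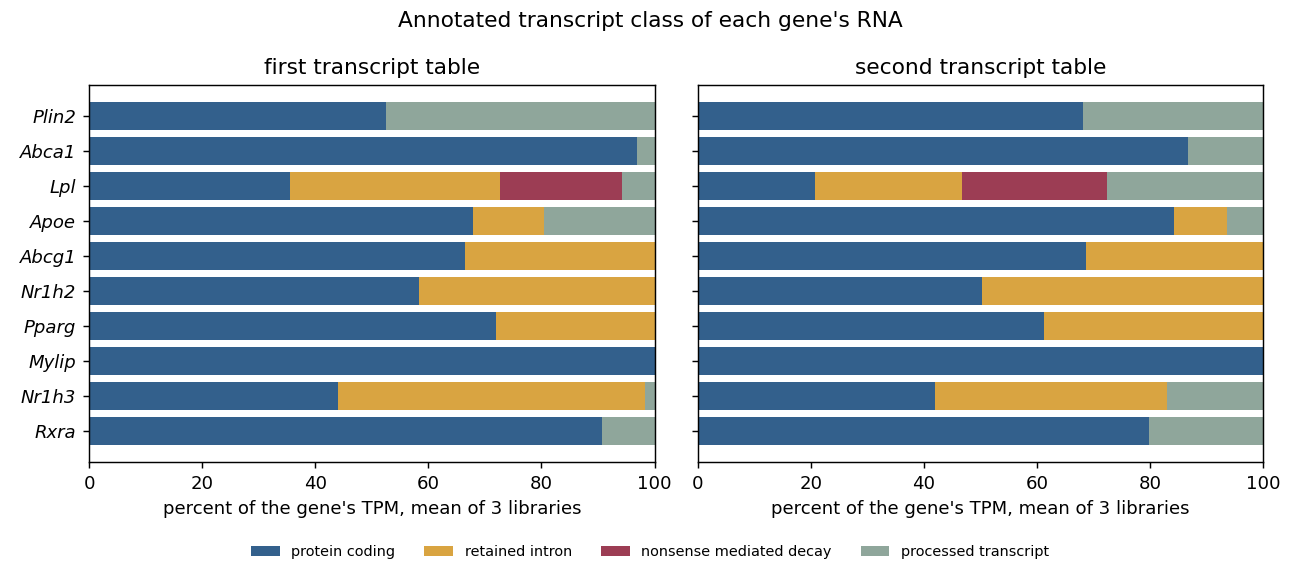
Mean percent of each gene's TPM in each annotated transcript class over 3 libraries, in the first (left) and second (right) transcript table. Retained intron forms hold the largest part in Nr1h3 in the first table, 54.4%, and in Nr1h2 in the second, 49.8%, and Lpl is the member with a nonsense-mediated decay form.

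Pparg has starts at the head of the gene, which give the PPARγ1 protein, and a downstream start, which gives the PPARγ2 form known from fat tissue. Its sequence upstream is the second one printed above. The form of that start, Pparg-201, begins 61115 bases into the gene and had 0, 0.52 and 0.20 TPM in the first table, and 2.93, 3.83 and 3.15 TPM in the second. Its share was 1.04% ± 1.09 in the first table and 4.68% ± 0.686 in the second (SD, n = 3 each). Coding forms from the head of the gene (Pparg-202, Pparg-204 and Pparg-206) held 86.2%, 60.2% and 66.1% in the first table and 42.9%, 25.1% and 38.2% in the second. They stood above the downstream form in every library in both tables.

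The excess of Pparg in the second table came with short forms that the first table left at or near 0. Pparg-203, a retained intron form of 213 bases, had 0, 0 and 1.54 TPM in the first table and 9.95, 39.5 and 15.8 TPM in the second. Pparg-206 and Pparg-207, of 497 and 835 bases, had 0 TPM in every library of the first table and 10.7 ± 1.31 and 15.1 ± 3.08 TPM in the second (SD, n = 3 each). The main full-length form, Pparg-202, differed far less, with 17.8, 11.8 and 12.9 TPM in the first table and 11.4, 8.64 and 10.2 TPM in the second. Per-transcript levels of Pparg are therefore uncertain, and a 0 in the first table is a listed 0.

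Rxra, chosen for this after its values were seen, showed a like split. Rxra-201 held 82.6%, 93.9% and 86.5% of its TPM in the first table and 30.7%, 30.6% and 30.3% in the second. Rxra-202 and Rxra-203, which start 32852 and 34143 bases into the gene, held 3.07% ± 3.89 in the first table and 48.8% ± 1.95 in the second (SD, n = 3 each). Which start of Rxra gave more RNA thus depended on the quantification.

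**Figure D5:**
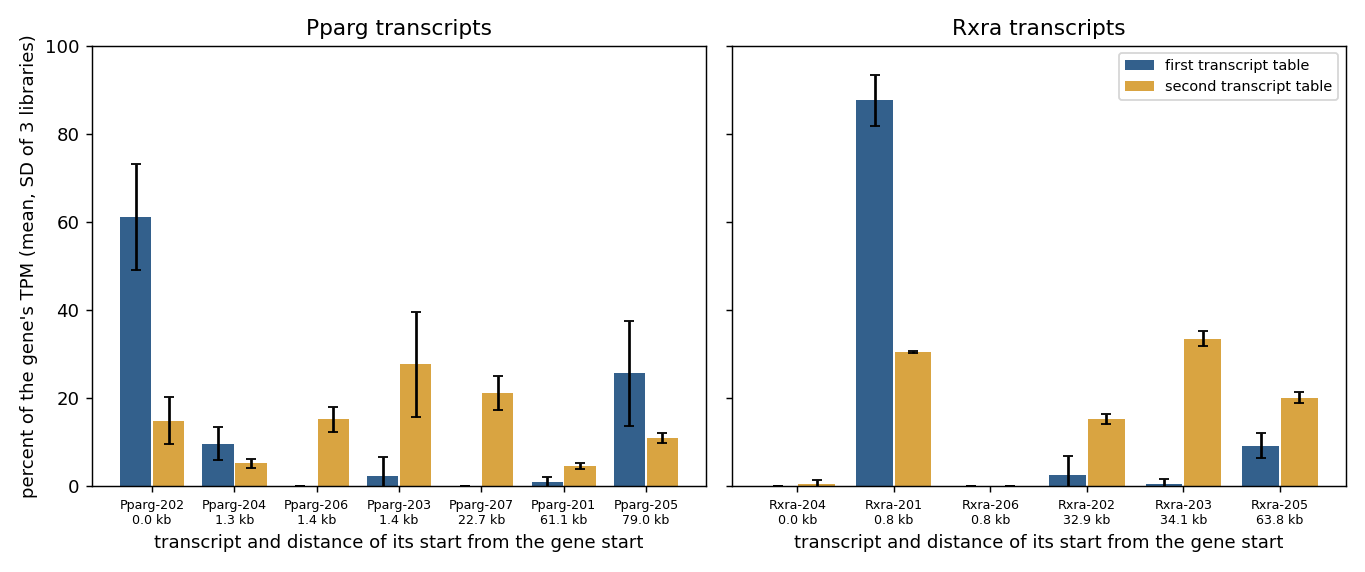
Mean percent of the gene's TPM (SD, n = 3) in each Pparg (left) and Rxra (right) transcript, ordered by the distance in kb of its start from the gene start, with dark bars for the first and light bars for the second transcript table. Pparg-202 leads in the first table with 61.1% and Pparg-203 in the second with 27.7%, and Pparg-201 at 61.1 kb is low in both.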

How the data were processed

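Chromatin RNA of 3 libraries of 1 group was measured by total RNA-seq. Per the file headers, the authors deposited estimated counts, TPM and the SD that read assignment adds to each count, per gene, and estimated counts and TPM per transcript in a first transcript table. Per the deposited readme files, both come from transcriptome alignments to mm10 with GENCODE M21, and the second transcript table, also of estimated counts and TPM, was made by the authors from unaligned reads with an index of that annotation. No source used here names the programs, their versions or the use of strand, and column names are those that RSEM and kallisto write. TPM falls for every gene when a library holds more short structural RNA. Signal tracks are not analysed here.

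The members and lists were chosen with earlier results of these data known. Named were all members, their main transcripts, the Pparg transcripts that differ in first exon, and in each list the 2 genes with the highest and the 2 with the lowest mean TPM. Some genes of the sterol list are not reported here and were left out of its values. Rows without an annotated gene (1.16%, 0.459% and 0.351% of counts) were left out. The 86 annotated genes that are not in the second transcript table were taken as 0 there. The libraries differed from each other beyond counting noise (chi-square per degree of freedom 30.5, 24.6 and 13.1), so none is a copy of another. Because only counting noise was allowed for, these values do not show whether the libraries are technical repeats. Counts were rounded and scaled with edgeR 4.0.16 (TMM) in R 4.3.3 for genes with a mean count of 10 or more, and the gene-wise variation was fitted with an intercept only; DESeq2 1.42.0 size factors, total counts, a pseudocount of 0.1 in place of 1 and each replicate left out were alternatives. Gene positions and types come from GENCODE M21 (mm10, 1-based), the annotation of the deposited values.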

Additional observations from a re-analysis of the deposited data

How the results depend on the processing

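No paired analysis was possible because all 3 libraries form 1 group. Without length normalization Rxra minus Pparg turned to 0.49 in log2(CPM + 1); Abca1 minus Abcg1 was 3.49 and Nr1h3 minus Nr1h2 -0.98 on that scale, and Rxra minus Pparg was -1.71 in the second transcript table, moves of over 1.5 times without a change of sign. Rescaling TPM over protein-coding genes moved the median of the 10 genes to 203 TPM, since the RNAs left out no longer count in the total. With a fold of 2, 0 members differed between replicates 1 and 2, and with total-count scaling, which moves the median ratio of all genes by 0.19 in log2 relative to TMM, 3 differed between replicates 2 and 3. Leaving out each replicate in turn gave -1.90 to -1.68 for Nr1h3 minus Nr1h2, 1.42 to 1.60 for Abca1 minus Abcg1, -0.99 to -0.86 for Rxra minus Pparg, 46.7 to 61.6 TPM for the median of the 10 genes, 34.0% to 38.9% for the retained intron share and 10 detected members each time. With 2 libraries the smallest exact p is 0.5. In all, 43 alternative values of group results counted as alike: gene pairs with the same sign, whatever the size of the move, medians that moved by less than the spread between libraries, and counts within 1.5 times the reported one. Several of these could not have come out otherwise. With a replicate left out, pair signs were fixed by 3 libraries of 1 sign, and detection in all 3 libraries fixed the count of members. The medians could then not move past the spread. Dropping the low-count filter or setting a TPM minimum took no member in or out. Of 40 alternative levels of single genes, 34 stayed within 1 SD. The other 6, Lpl, Abcg1, Pparg, Plin2, Mylip and Rxra in the second transcript table, were higher there. Levels with a replicate left out had to stay, because dropping 1 of 3 values moves a mean by less than 1 SD. The second transcript table was thus the only alternative that could move a level, and 6 of the 10 genes moved.

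With 3 libraries of 1 group the smallest exact p is 0.25, above 0.05, and no response to Lipid A was read. Depth limits genes such as Rxrg and Ppara, at 0 counts, more than the 10 genes.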
